A study of Mus musculus with 18 samples.

Results

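Accessible chromatin was examined around 4 chemokine genes, Ccl17, Ccl22, Cx3cl1 and Ccl24, in mouse bone marrow-derived macrophages (BMDMs). Members were all reference peaks, summits and extended regions that lay in the gene bodies or within 50 kb of the most upstream annotated start site of these genes, on mm10 with GENCODE release M21. They came to 39 of 82391 reference peaks, 39 of 84660 summits and 28 of 59617 extended regions. Each of the 39 peaks carried 1 summit. The rule used gene names and positions and no score.

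The lists came from ATAC-seq, which reads out where the Tn5 transposase can reach the DNA. Wild type BMDMs, grown from the marrow of male C57/BL6 mice aged 6 to 8 weeks, were all kept in the vehicle DMSO for 1 h and then either left alone or given 10 ng/mL of LPS or of IL-4 for 30 min, 1, 2 or 4 h. This gave 9 groups with 2 libraries in each, 18 libraries in all. LPS is a bacterial cell wall component that is sensed by TLR4, and IL-4 is a cytokine of allergic and antiparasitic responses. The authors had joined all libraries into 3 lists without a column per library, so that the values below describe a single pooled catalog. No value could be given per sample, and neither the depth of a library, the spread between replicates nor an effect of LPS or IL-4 could be measured at these genes. As a check of the labelled cell type, all 5 macrophage markers (Adgre1, Csf1r, Cd68, Itgam and Mertk) carried a start site peak, compared to 0 of 3 T cell markers (Cd3e, Cd4 and Cd8a) and 1 of 3 epithelial and neural markers (Gfap, but not Epcam or Cdh1), and to 56.5% of all coding genes, so that such small lists are a weak check.

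Chemokines are small secreted proteins that direct the migration of leukocytes through receptors coupled to G proteins. Ccl17 and Ccl22 are both ligands of Ccr4, a receptor of type 2 helper and regulatory T cells, and Ccl17 and Ccl24 are known as products of macrophages activated by IL-4. Cx3cl1, or fractalkine, is made as a membrane protein whose chemokine domain sits on a mucin stalk, is released by the proteases Adam10 and Adam17, and binds Cx3cr1 on monocytes and macrophages. Ccl24, or eotaxin-2, attracts eosinophils through Ccr3. Ccl22, Cx3cl1 and Ccl17 lie next to each other in this order and on the same strand of chromosome 8, and Ccl24 lies on chromosome 5 beside Ccl26.

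The sequences that bear on the results below are given first, 5′ to 3′. Promoter sequence was available for 3 of the 4 genes from RefSeq (assembly GRCm38.p6), namely Ccl17, Ccl22 and Cx3cl1, and only bases before the most upstream annotated start site are printed. The promoter of Ccl17 is shown because no reference peak covers it although it holds a pair of STAT-type motifs, which are in capitals (chr8:94810203-94810452, plus strand, the last base directly before the start site). The promoter of Ccl22 is shown because a reference peak reaches across its start site, and the bases inside that peak are in capitals (chr8:94745434-94745589, plus strand).
Ccl17 promoter: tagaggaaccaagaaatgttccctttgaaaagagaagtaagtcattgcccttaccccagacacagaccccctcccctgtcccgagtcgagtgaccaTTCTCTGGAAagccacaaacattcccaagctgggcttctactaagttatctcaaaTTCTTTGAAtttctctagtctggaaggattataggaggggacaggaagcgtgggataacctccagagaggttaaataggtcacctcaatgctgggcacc
Ccl22 promoter: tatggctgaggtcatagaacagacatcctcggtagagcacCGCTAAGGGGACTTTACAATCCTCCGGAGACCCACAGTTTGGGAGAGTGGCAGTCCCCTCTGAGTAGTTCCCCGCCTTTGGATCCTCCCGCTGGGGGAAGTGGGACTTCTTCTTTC

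Next come 3 whole reference peaks on the plus strand of mm10, with every match to a searched motif that lies wholly inside the peak in capitals. The peak upstream of Ccl17 (chr8:94802376-94802626) had the best scored summit among the peaks nearest to this gene, and its capitals mark an AP-1 and a PU.1/ETS match. The abutting peaks behind Ccl24 (chr5:135568553-135568776 and chr5:135568777-135569006) were the only members with no base between them, and their capitals mark overlapping STAT and AP-1 matches and a C/EBP match in the former and an AP-1 match in the latter. These 3 peaks were chosen after their values were seen.
Peak upstream of Ccl17: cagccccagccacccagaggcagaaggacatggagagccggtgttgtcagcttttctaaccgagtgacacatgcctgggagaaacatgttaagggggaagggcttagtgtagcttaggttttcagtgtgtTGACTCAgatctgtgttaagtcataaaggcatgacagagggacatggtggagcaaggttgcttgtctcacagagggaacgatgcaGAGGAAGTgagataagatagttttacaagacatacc
Peak behind Ccl24, former: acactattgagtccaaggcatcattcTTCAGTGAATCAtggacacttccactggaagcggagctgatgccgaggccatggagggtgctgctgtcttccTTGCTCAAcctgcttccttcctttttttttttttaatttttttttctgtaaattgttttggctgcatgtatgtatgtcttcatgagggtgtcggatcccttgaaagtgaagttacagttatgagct
Peak behind Ccl24, latter: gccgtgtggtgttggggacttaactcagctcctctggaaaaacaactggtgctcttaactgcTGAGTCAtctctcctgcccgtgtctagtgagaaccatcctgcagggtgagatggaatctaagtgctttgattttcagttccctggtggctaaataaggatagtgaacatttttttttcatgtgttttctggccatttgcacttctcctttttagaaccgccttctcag

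At their start sites the genes fell into different states. Ccl22, Cx3cl1 and Ccl24 had a reference peak within 1000 bp of an annotated start site and Ccl17 had none, which makes 3 of 4 genes, whereas 56.5% of 21938 protein-coding genes had such a peak. With 4 genes, a share of this size cannot be told from that of all genes. The deposited summit score ranged from 102 to 2781 over the whole list, with a median of 737. It took 219 different values, so that ties are frequent, and its scale is not stated in the sources used here. It is the value of a summit in the merged call over all libraries and is used here only to rank summits.

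Ccl22 (chr8:94745590-94751699, plus strand) had its start site peak at chr8:94745474-94745697. The summit lay 23 bp before the most upstream start site, and its score was 856. Only 14.7% of the coding genes with a start site peak had a lower best score there. No other reference peak was found in the gene body, and the next 8670 bp, which contain the rest of the gene, were free of peaks.

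Cx3cl1 (chr8:94772009-94782427, plus strand) had its start site peak at chr8:94772063-94772230, behind the most upstream start site and around a later annotated one. Its summit lay 139 bp into the gene, in an untranslated exon, with a score of 780, and 11.8% of start site peaks scored lower. Unlike the other members, Cx3cl1 had several peaks in its body. Besides the start site peak there were 3 intronic peaks, whose summits lay 4506, 6623 and 7314 bp from the start site and scored 759, 968 and 1059. All 3 scored above the median of the list, and the last 2 of them scored higher than the start site. These last 2 carry the same number in the merged call with the letters a and b and are thus parts of a single broader call.

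Ccl24 (chr5:135569937-135573049, minus strand) had the best scored start site of the 4 genes. Its peak at chr5:135573109-135573360 began 60 bp before the annotated start site, its summit lay 150 bp before it, and its score was 1543. A lower score was found for 55.6% of start site peaks, so that Ccl24 stood near the middle of the coding genes while Cx3cl1 and Ccl22 stood near the lower end. The gene body of Ccl24 held no reference peak. In the body of Ccl17, Ccl22 or Cx3cl1 at least 1 peak was present, which gives 3 of 4 genes beside 63.5% of all coding genes.

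Ccl17 (chr8:94810453-94812036, plus strand) lacked a start site peak. Its start site fell into a stretch of 3311 bp without peaks (chr8:94808527-94811837). On the upstream side the closest summit lay 2020 bp away and scored 439. On the downstream side the peak at chr8:94811838-94812079, with a score of 791, began in the untranslated part of the last exon and ran past the end of the gene, its summit 1501 bp from the start site. When the distance was widened to 2500 bp, Ccl17 also counted as having a peak at its start site, and all 4 genes did, beside 59.9% of all coding genes. The numbers in the summit names rise along every chromosome and skip 1 number between the summits on either side of the Ccl17 start site. Such a skip was found around 95.7% of the 9407 start sites of coding genes that had no start site peak and a summit on either side, so that nothing particular to Ccl17 can be read from it. What the skipped numbers stood for is not stated in the sources used here.

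The promoters differed in base composition. The ratio of observed to expected CpG over 300 bases, from 250 before the RefSeq start site on, was 0.174 for Ccl17, 0.376 for Ccl22 and 0.615 for Cx3cl1. Of the 32851 promoters in the table, 24.7%, 49.3% and 65.2% had a lower ratio, respectively. GC content followed the same order, at 48%, 53.3% and 64.7%. Among coding promoters with a CpG ratio no higher than that of Ccl17, 12.5% of 3655 had a reference peak within 1000 bp, compared to 18.9% of 7296 at the ratio of Ccl22 or below and 28.9% of 10504 at that of Cx3cl1 or below. Of these 3 promoters, Ccl17 was thus the one with the fewest CpG and the one without a peak, and whether its composition has a part in this was not tested. The share of repeat bases, which the genome sequence gives in lower case, was 0% for Ccl17 and Ccl22 and 8.67% for Cx3cl1.

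In the Ccl17 promoter the motif search found a STAT6 match, a TTC and a GAA with 4 bases between them, at positions -154 to -145 relative to the start site, and a STAT match with 3 bases between them (TTCNNNGAA) at positions -99 to -91. STAT6 is the transcription factor activated by the IL-4 receptor. A STAT6 match was present in 6.95% of all promoters and a STAT match in 8.3%. No match to any of the 13 motifs was found in the windows of the Ccl22 and Cx3cl1 promoters, which says only that these letters are not in these 300 bases. TATAAA occurred on the strand of the gene in the promoter window of Cx3cl1, from position -6 relative to the RefSeq start site, and not in those of Ccl17 and Ccl22. Over all promoters it occurred in 8.32%.

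Little of the sequence around these start sites occurs elsewhere in the genome. Within 1000 bp of the start sites of Ccl17, Ccl22 and Cx3cl1, all 1964 stretches of 38 bases, the shortest length of read that the authors kept, occurred once in the primary chromosomes. Around Ccl24, 47 of 1964 stretches of 38 bases occurred more than once, and none of 1926 stretches of 76 bases, the full read length, did. Over the whole windows on chromosomes 5 and 8, 12.5% and 8.22% of stretches of 38 bases occurred more than once. For stretches of 76 bases the shares were 6.17% and 4.06%.

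The wider surroundings of the genes held more peaks than those of most coding genes. Within 50 kb of its start site Ccl17 had 18 reference peaks in 13 extended regions, and 89.4% of coding genes had fewer peaks. Ccl22 had 16 peaks in 11 regions (85.6% with fewer), Cx3cl1 had 15 peaks in 12 regions (83.2% with fewer) and Ccl24 had 10 peaks in 8 regions (66.3% with fewer). The median over all coding genes was 6 peaks, with quartiles of 1 and 12. Ccl17, the gene without a start site peak, had the highest count of the 4 with this window, but not within 100 kb (28 peaks, compared to 31 for Ccl22 and for Cx3cl1) or among summits at or above the median score (8 peaks, compared to 10 for Ccl22).

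**Figure D1:**
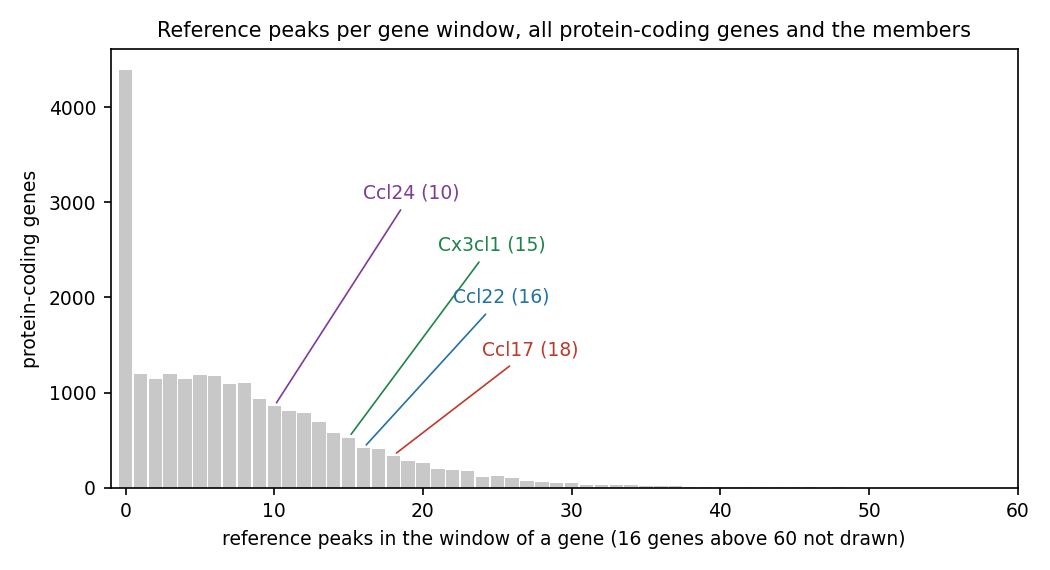
Number of protein-coding genes (y axis) by the number of reference peaks within 50 kb of the start site or in the gene body (x axis). Grey bars are all 21938 coding genes and the coloured labels mark Ccl24 with 10, Cx3cl1 with 15, Ccl22 with 16 and Ccl17 with 18 peaks, all to the right of the median of 6.

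These counts are not independent on chromosome 8. The start sites of Ccl22 and Cx3cl1 are 26419 bp apart, those of Cx3cl1 and Ccl17 38444 bp and those of Ccl22 and Ccl17 64863 bp, so that the windows overlap. Ccl22 and Cx3cl1 shared 9 peaks, Cx3cl1 and Ccl17 11, and Ccl22 and Ccl17 5. The joint window (chr8:94695590-94860453) held 29 different peaks, or 176 per Mb, and the window of Ccl24 (chr5:135523049-135623049) held 10, or 100 per Mb. Peaks on chromosome 8 were 146 to 454 bp wide with a median of 232 bp, and those around Ccl24 were 123 to 643 bp wide with a median of 220 bp.

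Other coding genes start inside the windows, and each peak was therefore assigned to the coding gene with the nearest start site. Of the 39 peaks, 20 were nearest to a member: 6 to Ccl17, 5 to Cx3cl1, 5 to Ccl24 and 4 to Ccl22. The other 19 were nearest to Pllp (7), Ciapin1 (3), Coq9 (3), Hip1 (3), Rhbdd2 (2) and Polr2c (1). Summits nearest to a member scored between 282 and 1543 with a median of 628.5, and 9 of 20 reached the median of the list. Those nearest to another gene scored between 274 and 1955 with a median of 780, and 11 of 19 reached it. By gene, the median score was 395 for the peaks of Ccl22, 472 for those of Ccl17, 634 for those of Ccl24 and 780 for those of Cx3cl1.

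The best scored summits of both loci belonged to neighbours. The highest score on chromosome 8 was 1734 at the start sites of Ciapin1 and Coq9, an iron-sulphur cluster assembly factor and a coenzyme Q biosynthesis protein that are transcribed in opposite directions from the same peak. The highest score around Ccl24 was 1955 at the start site of Hip1, which codes for a protein of clathrin-coated vesicles. Polr2c, a subunit of RNA polymerase II, had a start site score of 780, equal to that of Cx3cl1. Pllp and Ccl26, a chemokine gene next to Ccl24, had no start site peak.

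**Figure D2:**
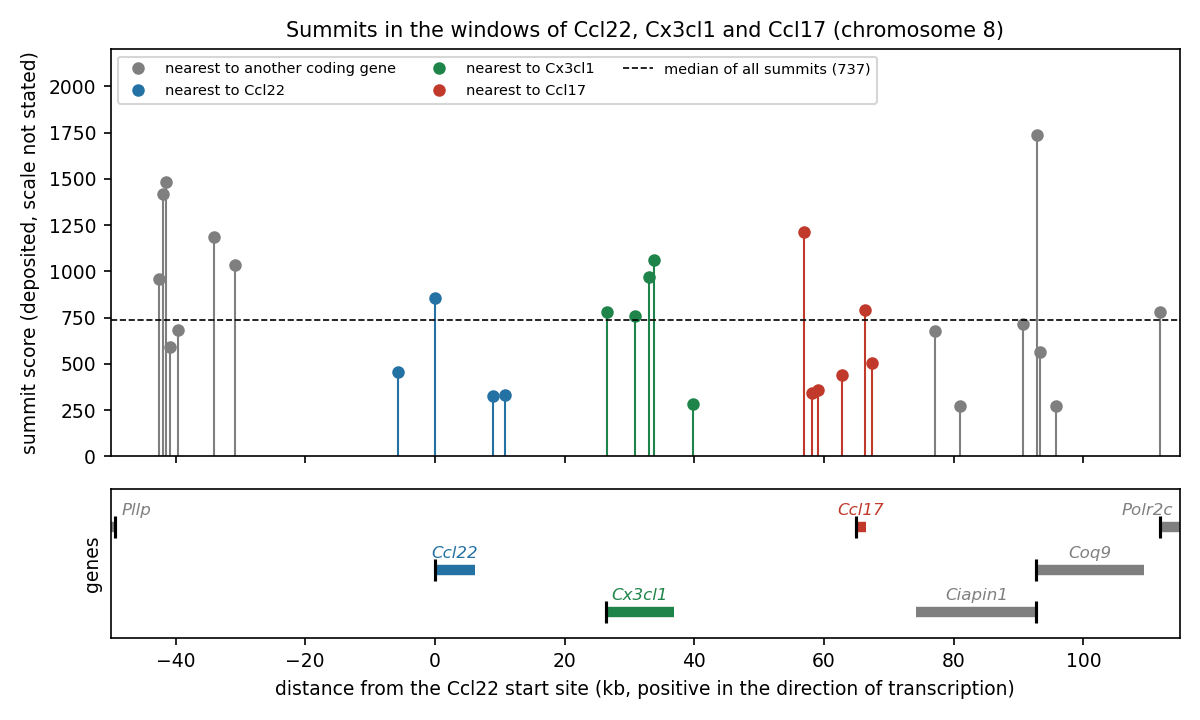
Summits in the joint window of Ccl22, Cx3cl1 and Ccl17, as the deposited summit score (y axis, scale not stated) against the distance from the Ccl22 start site in kb (x axis), coloured by the gene with the nearest coding start site. The lower track shows gene bodies with black ticks at start sites. Ccl17 has no summit at its tick and its highest summit, 1212, stands upstream of it.

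Around Ccl17 the peaks were spread to both sides. Upstream, 4 summits lay 2020, 5715, 6711 and 7951 bp from the start site and scored 439, 358, 341 and 1212. The one farthest away, printed above, was thus the strongest and the only one of the 4 above the median of the list. Together with the next 2 peaks it formed an extended region of 3 peaks. Downstream, the peak at the end of the gene (791) was followed by another summit 2531 bp from the start site with a score of 505. All other peaks on that side were nearer to Ciapin1, Coq9 or Polr2c.

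Around Ccl22, the start site summit (856) was the strongest of the 4 peaks nearest to the gene. The others lay 5627 bp upstream with a score of 458, and 8906 and 10857 bp downstream, past the end of the gene, with scores of 324 and 332. All 3 scored below the median of the list. Farther upstream, after a stretch of 24810 bp without peaks (chr8:94715020-94739829), came 7 peaks that are in the Ccl22 window but nearer to Pllp, which codes for a myelin and epithelial membrane protein. Of these, 5 formed a single extended region (chr8:94702205-94706874), with scores of 956, 1418, 1480, 593 and 685. Its summits lay at positions -42590 to -39548 relative to the Ccl22 start site, and which gene, if any, these peaks act on cannot be read from positions.

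Around Cx3cl1, 4 of 5 peaks lay in the gene and the fifth lay 13435 bp from the start site, past the gene end, with a score of 282. A stretch of 15459 bp before the start site peak (chr8:94756604-94772062) and another of 16782 bp behind the last peak (chr8:94785594-94802375) were free of peaks. The listed peaks of Cx3cl1 were therefore set apart from those of Ccl22 and Ccl17 on both sides. Across these stretches the summit names skip 4 and 5 numbers, respectively, and what these stood for is not stated.

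Around Ccl24, the abutting peaks printed above had summits 4406 and 4205 bp downstream of the start site, past the end of the gene, with scores of 634 and 979. They carry the same number in the merged call with the letters a and b and are thus parts of a single broader call. Upstream of the start site peak were summits at 2648 and 9504 bp with scores of 358 and 623. A stretch of 32851 bp without peaks followed (chr5:135582615-135615465), the longest in either locus, and a stretch of 16640 bp behind the abutting peaks (chr5:135551913-135568552) contained the start site of Ccl26.

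**Figure D3:**
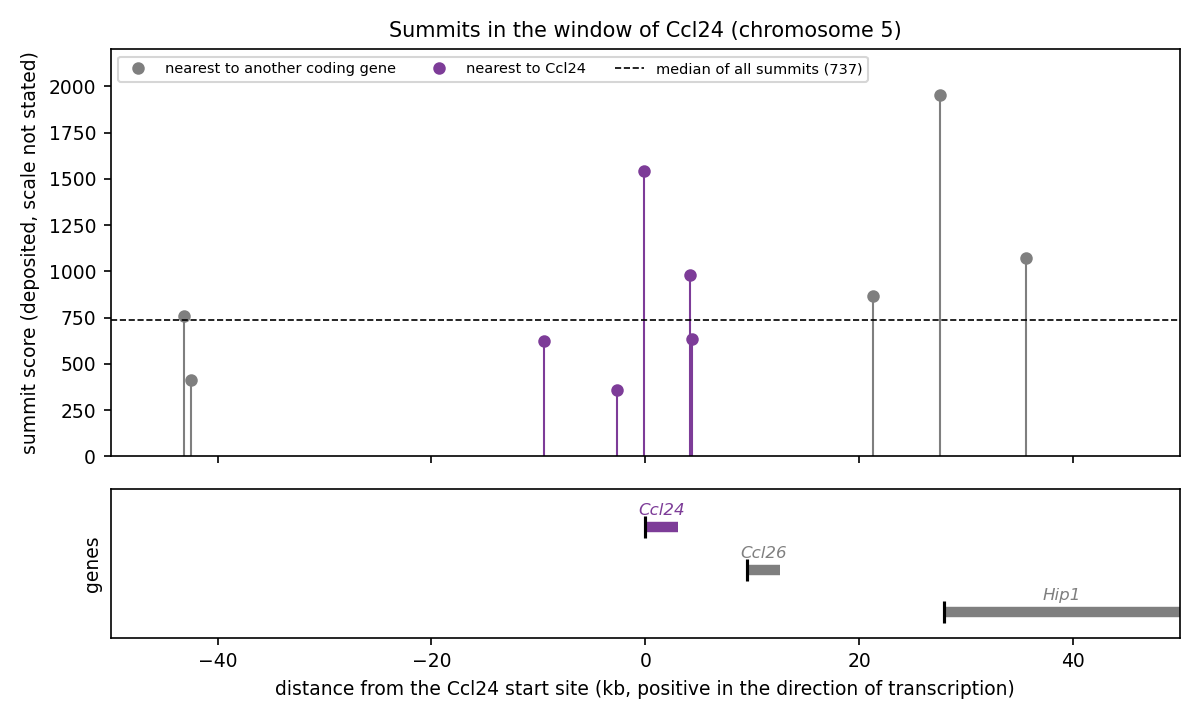
Summits in the window of Ccl24, as the deposited summit score (y axis, scale not stated) against the distance from the Ccl24 start site in kb (x axis, positive in the direction in which Ccl24 is transcribed), coloured by the gene with the nearest coding start site. The summit before the start site scores 1543, and the highest summit, 1955, is that of Hip1.

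By annotation, 26 of the 39 summits lay outside coding genes (66.7%, all summits 42.4%), 7 in introns (17.9%, all summits 46.8%), 6 in untranslated exons (15.4%, all summits 8.66%) and 0 in coding exons (all summits 2.05%). At the edges of the windows, the outermost peak inside on the Polr2c side of chromosome 8 was 2924 bp from the edge (score 780) and the first peak outside 1005 bp beyond it (634). On the Pllp side the corresponding distances were 7315 bp (956) and 28280 bp (393). For Ccl24 they were 6781 bp (759) and 3792 bp (1129) on the upstream side and 14359 bp (1071) and 28604 bp (593) on the Hip1 side.

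The 100 bp to either side of each summit were searched for motifs on both strands, and every count is given beside the share of all 84660 summits with the same motif. The counts are small, summits of 1 locus share their surroundings, and no test was made. At least 1 of the 13 motifs was found at 26 of the 39 summits (66.7%, all summits 61.6%). NF-kB, the factor family activated through TLR4, stood out most from the list: its motif was found at 9 of 39 summits (23.1%) compared to 5.55% of all summits. AP-1 (TGANTCA) was found at 10 summits (25.6%, all summits 19.4%), PU.1/ETS (GAGGAAGT), PU.1 being a lineage factor of macrophages, at 6 (15.4%, all summits 9.08%), STAT (TTCNNNGAA) at 4 (10.3%, all summits 6.35%) and CTCF, the boundary factor, at 4 (10.3%, all summits 5.01%). For PU.1/ETS and STAT the direction turned within 50 bp, where 2 (5.13%, all summits 6.44%) and 1 (2.56%, all summits 3.2%) of the 39 summits had a match.

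Within 100 bp, the other motifs were found at a smaller share of the summits than in the whole list. C/EBP (TTGCNNAA) was found at 2 summits (5.13%, all summits 11.4%), RUNX (TGTGGTT) at 2 (5.13%, all summits 7.91%), STAT6 at 1 (2.56%, all summits 6.81%) and IRF, with GAAA repeated after 2 bases, at 1 (2.56%, all summits 3.64%). Within 200 bp the direction turned for RUNX, found at 6 summits (15.4%, all summits 12%), and for IRF, found at 3 (7.69%, all summits 6.51%). SP/KLF (GGGCGGGG), CRE (TGACGTCA), EGR (GCGTGGGCG) and MiT E-box (TCACGTGA) matches were found at 0 of 39 summits, compared to 7.15%, 0.938%, 0.28% and 0.496% of all summits. The only STAT6 match within 100 bp of a member summit lay at a peak nearest to Hip1 (chr5:135551725-135551734), so that the STAT6 match in the Ccl17 promoter stands outside every peak and no summit nearest to one of the 4 genes had one within 100 bp. Within 200 bp, 2 of the 39 summits had a STAT6 match (5.13%, all summits 11.8%). With 39 summits, a difference of 1 or 2 matches from the share in the list carries no information.

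**Figure D4:**
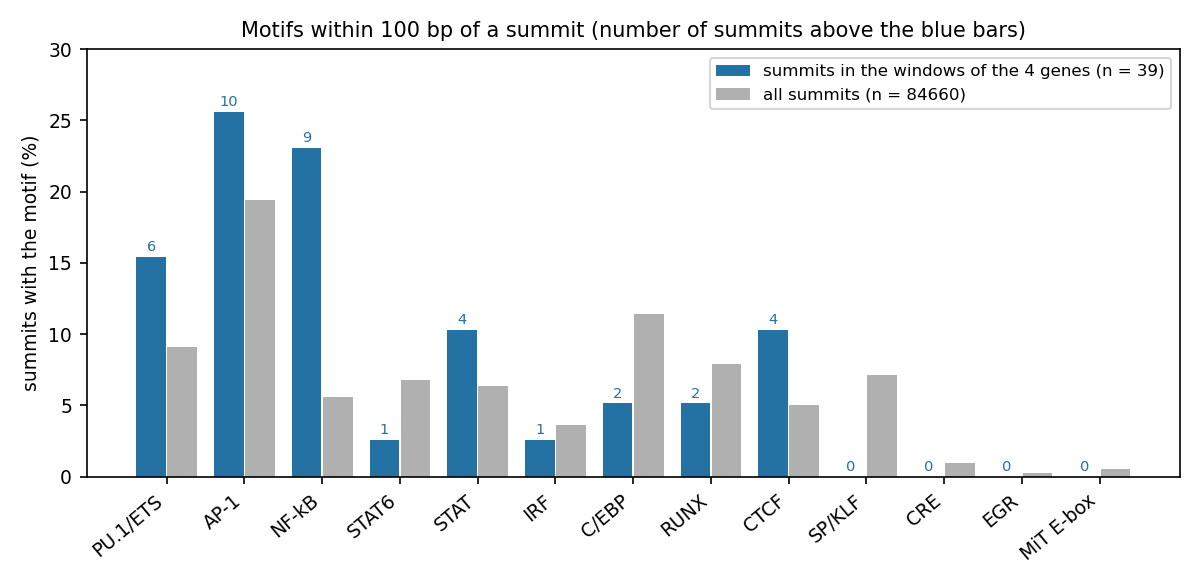
Share of summits with a motif within 100 bp (y axis, percent) for 13 motifs (x axis), for the 39 summits around the 4 genes (blue, with the number of summits above each bar) and all 84660 summits (grey). The NF-kB bar of the 39 summits reaches 23.1% and the grey one 5.55%.

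The NF-kB matches were spread over both loci, and 6 of the 9 summits were nearest to a member: 2 to Ccl22, 2 to Cx3cl1, 1 to Ccl17 and 1 to Ccl24. Of all 39 summits, 20 were nearest to a member. Among the 6 summits, 5 scored below the median of the list, with 458 and 324 (Ccl22), 282 (Cx3cl1), 439 (Ccl17) and 358 (Ccl24). The other summit nearest to Cx3cl1 scored 1059, above it. The matches at Ccl17, at Ccl24 and at the Cx3cl1 summit scoring 282 lay at positions 89, 74 and 63 relative to the summit, outside 50 bp. The Ccl17 match ran past the end of its peak. The matches at 8 of the 9 summits are printed with 10 bases on either side, on the strand of the motif and with the motif in capitals, since this motif differed most from its share in the list. Of the 9 summits, 2 had 2 matches, and the summit toward Pllp with both printed is among them.
Toward Hip1, chr5:135551742-135551771, minus strand: gtcataaggcGGGACTCCCCatcatggtat
Upstream of Ccl24, chr5:135575757-135575786, plus strand: acacatttagGGGGTTTTCCaaggccttaa
Toward Pllp, chr8:94706010-94706039, minus strand: ggtcagccccGGGACTTTCCtccaagctgg
Toward Pllp, chr8:94706050-94706079, minus strand: gagccacacaGGGACTTCCCctgctctgat
Toward Pllp, chr8:94714803-94714832, minus strand: ttggatcgttGGGAGTTTCCaggatcccaa
Upstream of Ccl22, chr8:94739967-94739996, plus strand: ctcctcacttGGGGCACCCCcttgctcagc
Downstream of Ccl22, chr8:94754472-94754501, plus strand: atcctaacatGGGATTTCCCctttcccttt
Downstream of Cx3cl1, chr8:94785493-94785522, plus strand: atgaatggctGGGAATTTCCagctttgagc
Upstream of Ccl17, chr8:94808508-94808537, minus strand: atcagtcccaGGGACACTCCtgagatcaag

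Of the 6 summits with a PU.1/ETS match, 3 were nearest to Ccl17, 2 to Ccl24 and 1 to Ciapin1. The 3 of Ccl17 were among its 4 upstream summits, at 7951, 6711 and 5715 bp, and those at 7951 and 6711 bp also had an AP-1 match. Their PU.1/ETS matches lay at positions 92, -97 and -21 relative to the summit, in this order, so that only the last was within 50 bp. The start site peak of Ccl24 held a PU.1/ETS match on the minus strand (chr5:135573128-135573135) that overlaps a STAT match (chr5:135573130-135573138), and these are partly the same bases. AP-1 matches lay 2 bp from the summit of the latter of the abutting peaks behind Ccl24 and 7 bp from the summit of the peak 7951 bp upstream of Ccl17. A CTCF match lay 5 bp from the summit behind Ccl17 (chr8:94812974-94812985), on the side toward Ciapin1, and another 22 bp from the summit in an untranslated exon of Ciapin1 (chr8:94822759-94822770). CTCF matches also lay 8 bp from a summit in an intron of Coq9 and 42 bp from a summit nearest to Rhbdd2. A match is a description of the letters at a place and does not show that the factor was bound. Over the 39 summits the median GC content within 100 bp was 52.7%, compared to 50.2% for all summits, and 48.7% of them had a repeat base there, compared to 56%.

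The genes that act with these chemokines were described from lists that had been put together by name. Among the receptors, Cx3cr1 (score 1493, 44 peaks within 50 kb or in the gene) and Ccr3 (634, 21 peaks) had a start site peak, and Ccr4, the receptor of Ccl17 and Ccl22, and Ackr2, a scavenger of inflammatory chemokines, did not. Of the proteases, Adam10 (2140) and Adam17 (1955), which shed Cx3cl1, and Ctss (1094), a lysosomal cathepsin, had one, and Dpp4, which trims chemokines, did not. This made 2 of 4 receptors and 3 of 4 proteases, beside 56.5% of all coding genes, and lists of this size cannot be told from that share. Of 7 genes of IL-4 signalling, 6 had a start site peak, beside 56.5% of all coding genes: Jak1 (1890), Il4ra (1683), Stat6 (1556), Irf4 (1200), Il2rg (923) and Jak3 (856). Il13ra1, whose product pairs with the IL-4 receptor chain, had none.

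Of the 13 other CC chemokine genes, 9 had a start site peak, again beside 56.5% of all coding genes, with scores from 554 at Ccl8 to 2074 at Ccl3 and a median of 1747. Ccl1, Ccl11, Ccl20 and Ccl26 had none. Ccl22 and Cx3cl1 scored lower than 7 of these 9 genes (above Ccl6 with 654 and Ccl8), and Ccl24 scored higher than 4 of them. Of these 13 genes, all but Ccl20 and Ccl26 lie on chromosome 11, where many of their windows overlap, and the median over the 13 genes was 33 peaks, compared to 15.5 over the 4 genes described here. The 4 and the 13 genes were compared without a test, since neighbours share peaks.

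**Figure D5:**
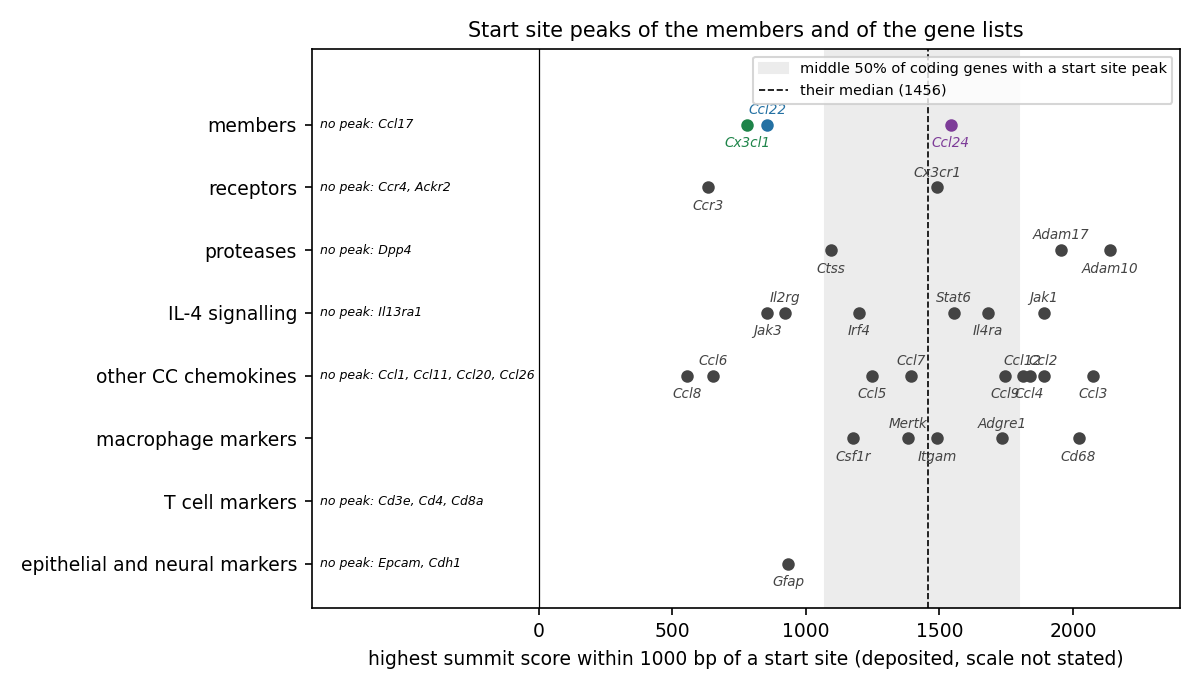
Highest summit score within 1000 bp of a start site (x axis, scale not stated) for each gene of 8 lists (y axis), 1 point per gene, with genes that had no start site peak named on the left. The grey band holds the middle 50% of the coding genes with a start site peak, from 1071 to 1799, and the broken line is their median of 1456. Cx3cl1 and Ccl22 lie to the left of the band and Ccl24 lies inside it.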

How the data were processed

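Adapters had been removed with BBDuk, reads trimmed with Trimmomatic (version 0.39), mapped to mm10 with ShortStack and filtered with SAMtools (version 1.9), and peaks called with MACS2 (version 2.2.6) by the authors, without local background and with duplicates kept. Peaks had to pass a q-value per sample and overlap between replicates. The 3 deposited lists are pooled. The reference peaks and extended regions, which equal peaks widened by 700 bp and joined, hold positions only. The summit score was deposited without a stated scale. There are 0 columns per sample, so that no depth, precision or test could be given.

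Peaks were counted if 1 bp overlapped a window. Genes were taken from GENCODE M21, sequence and promoters from GRCm38.p6 (same primary coordinates as mm10), using Python (version 3.11.15) and numpy (version 2.4.6). Motif counting was tested on simulated data only for the fixed words of PU.1/ETS, RUNX, SP/KLF and CRE. The other motifs, NF-kB, STAT6 and STAT among them, were not tested in this way. The counting of stretches that occur more than once was also tested on simulated data, and the share of repeat bases was not. Named were the members, coding genes starting in their windows, listed genes and, as the nearest gene of a peak, Rhbdd2, which was named after its values were seen. Peaks over exons, the start site peak of Ccl24 and the best scored summits, which belong to neighbours, were not printed as sequence, and the sequence at 1 summit is not reported here. Members and lists were chosen with earlier results of these data known. Alternatives were other windows, start site distances, motif distances, score limits and annotations.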

Additional observations from a re-analysis of the deposited data

How the results depend on the processing

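With windows of 20 kb, the 4 genes had 22 reference peaks, 22 summits and 17 extended regions, and Ccl17 had 8 peaks, Cx3cl1 7, Ccl24 5 and Ccl22 4. Only with summits at or above the median score, 20 peaks, 20 summits and 17 regions were left, and Ccl22 had 10 peaks, Ccl17 8, Cx3cl1 7 and Ccl24 6. With 100 kb the totals were 57, 57 and 42, and Ccl22 and Cx3cl1 had 31 peaks each, Ccl17 28 and Ccl24 21. The order of the genes by peak count thus depends on the window and on the score limit. A start site peak was counted at 3 genes within 500 bp (54.9% of all coding genes) and at 4 within 2500 bp (59.9%), and a peak in the gene body more than 1000 bp from a start site at 2. With the start sites of all annotated genes, 18 peaks were nearest to a member. Any of the motifs was found at 20 summits within 50 bp (51.3%, all summits 44.9%) and at 32 within 200 bp (82.1%, all summits 74.8%). The NF-kB motif was found at 6 summits within 50 bp, compared to 3.4% of all summits, and at 11 within 200 bp, compared to 8.05%. Relative to all summits, PU.1/ETS and STAT turned from higher to lower within 50 bp, and RUNX and IRF from lower to higher within 200 bp, and no other motif turned. No paired analysis was possible because the lists carry no column per library and no test was made. What limits these values is that the depth of the libraries and the scale of the score are unknown.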
